A study of Mus musculus with 6 samples.

Results

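Ketone body synthesis and use was followed through 4 genes in organoids grown from mouse small-intestinal crypts and treated with low-density lipoprotein (LDL) or vehicle. The 4 genes were Bdh1 and Bdh2, which encode dehydrogenases named for β-hydroxybutyrate, Oxct1, which encodes the transferase that activates acetoacetate for use, and Slc16a1, which encodes the monocarboxylate carrier MCT1. They were chosen by symbol, and their Ensembl identifiers were found among the 55416 genes of the deposited table. The rule itself used no measured value.

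The organoids came from duodenal and jejunal crypts of 3 C57BL/6 mice with the genotype given as WT, whose age was not given in the sources used here. Cultures of each mouse received 50 μg/ml LDL or PBS for 5 days, so that the study holds 3 LDL-treated and 3 PBS-treated libraries and each mouse gave 1 library to each treatment. The animal identifier of mouse 3 in the labels has another prefix than those of mice 1 and 2, although the genotype is given as WT for each, so values without mouse 3 are given beside the main results. Each library measured a whole culture of crypt-derived epithelium, which holds several cell types, and in such bulk samples a change in the number of cells of a type and a change in RNA per cell cannot be told apart.

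Ketone bodies are small water-soluble fuels made from acetyl-CoA. Mitochondria release acetoacetate, and BDH1 reduces it to β-hydroxybutyrate and oxidizes it back where it is used. OXCT1 transfers a CoA group from succinyl-CoA to acetoacetate, after which thiolases such as ACAT1 split the product into acetyl-CoA. MCT1 moves ketone bodies, lactate and pyruvate across the plasma membrane together with a proton and needs the chaperone basigin, the product of Bsg, to reach the cell surface. BDH2 is a cytosolic dehydrogenase that was named as a second form of the enzyme. In the small intestine, β-hydroxybutyrate is known as a metabolite of crypt base stem cells.

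The 4 genes lie apart from each other except that Bdh2 and Slc16a1 share a chromosome. In GRCm39 with GENCODE M39, Bdh1 (ENSMUSG00000046598) spans chr16:31241087-31277725, Bdh2 (ENSMUSG00000028167) chr3:134986982-135010187, Oxct1 (ENSMUSG00000022186) chr15:4055638-4184828 and Slc16a1 (ENSMUSG00000032902) chr3:104545811-104565780, and each is on the plus strand. None of the stretches of the length of a read in their main transcripts was found in a transcript of another gene, so reads of the members are not shared with a paralog at this length.

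The sequences before the start of Slc16a1, Bdh1 and Bdh2 are shown because these members stood at opposite ends of the measured levels, Slc16a1 and Bdh1 among the abundant genes and Bdh2 with at most 6 reads in a library. They are the bases of the RefSeq promoter windows (table of GRCm38.p6, found again by exact match in GRCm39) that lie before the GENCODE start of the gene, written 5′ to 3′ on the plus strand. Capitals mark a CACGTG E-box. The windows are chr3:104545730-104545810 for Slc16a1, chr16:31240865-31241086 for Bdh1 and chr3:134986732-134986981 for Bdh2.
Slc16a1: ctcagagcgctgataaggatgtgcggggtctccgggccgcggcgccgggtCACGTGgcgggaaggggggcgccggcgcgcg
Bdh1: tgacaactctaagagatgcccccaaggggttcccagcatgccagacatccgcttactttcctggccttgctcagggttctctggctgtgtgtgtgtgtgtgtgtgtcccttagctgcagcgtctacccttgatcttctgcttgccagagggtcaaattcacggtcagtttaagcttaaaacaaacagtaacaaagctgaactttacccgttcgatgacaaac
Bdh2: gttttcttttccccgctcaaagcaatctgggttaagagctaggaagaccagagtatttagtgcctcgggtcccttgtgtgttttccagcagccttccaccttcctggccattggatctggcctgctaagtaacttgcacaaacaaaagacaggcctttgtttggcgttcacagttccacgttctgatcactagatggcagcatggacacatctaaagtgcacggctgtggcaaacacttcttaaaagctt

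The Slc16a1 stretch of 81 bases was 77.8% G or C and held 14 CpG dinucleotides, and its E-box began 31 bases before the GENCODE start. The Bdh1 stretch of 222 bases was 49.5% G or C with 5 CpG dinucleotides, and the Bdh2 stretch of 250 bases was 48% G or C, also with 5. All 4 members had RefSeq windows, 5 in number because Bdh1 has a further start inside the gene. The window of Oxct1 lies inside the GENCODE gene and is not printed.

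Motifs were searched on both strands in the whole windows of 300 bases, which run from 250 bases before each RefSeq start. The direct repeat of AGGTCA with a spacer of 1 base, which PPAR and RXR receptors read as a pair, was in 13 of 32851 windows (0.0396%) and in no member's window. Its repeated unit AGGTCA, which overlaps it by construction, was in 16.3% of windows and in no member's window. The E-box CACGTG, added after the sequences had been seen, was in 7.15% of windows and among the members in that of Slc16a1 alone. No match says only that these letters are not in this window.

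LDL-treated organoids held more Slc16a1 and less Oxct1 RNA than PBS-treated organoids of the same mouse in 3 of 3 mice, by 1.26- and 1.27-fold on average, and the Bdh1 levels of the 2 treatments overlapped. Neither difference passed the limma test without the mouse as a term. Both had an adjusted p under 0.05 with the mouse as a block, yet neither reached 1.5-fold. Bdh2 was close to the lower limit of detection. Values below are normalized counts, that is, reads divided by the size factor of the library.

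For Slc16a1, the carrier, the LDL-treated libraries of mice 1, 2 and 3 held 4431, 4665 and 4545 normalized counts, and the PBS-treated libraries held 3409, 3503 and 3895. Every LDL-treated library was above every PBS-treated library, and the mean was 4547 ± 117 against 3602 ± 258 (SD, n = 3). By mouse, the log2 differences were 0.38, 0.41 and 0.22, smallest in mouse 3. On the log2 scale of the normalized count plus 1, the difference was 0.34 (SE 0.088, 95% interval 0.13 to 0.54, or 1.26-fold), with an adjusted p of 0.103 by limma over 18459 genes, those whose mean reached 10. With the mouse as a block, the adjusted p was 0.0244, and it was 0.0118 with DESeq2 and 0.0791 with edgeR on the recovered reads without the block. Without both libraries of mouse 3 the log2 difference was 0.40, with an adjusted p of 0.715 by limma.

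Oxct1, the gene of ketone body use, was lower after LDL. The LDL-treated libraries held 3136, 2402 and 2522 normalized counts and the PBS-treated libraries 3481, 3339 and 3380. The groups did not overlap, and the PBS-treated libraries lay close together while LDL-treated mouse 1 stood above the other two, so that the means were 2686 ± 394 and 3400 ± 73.1 (SD, n = 3). The log2 difference was -0.35 (SE 0.114, 95% interval -0.61 to -0.09, 1.27-fold lower), with an adjusted p of 0.151 by limma. By mouse, the log2 differences were -0.15, -0.48 and -0.42. The adjusted p was 0.0332 with the mouse as a block, 0.178 with DESeq2 and 0.200 with edgeR without it. Without both libraries of mouse 3 the log2 difference was -0.31, with an adjusted p of 0.753 by limma.

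Bdh1, which interconverts the main ketone bodies, had 2633, 3851 and 3220 normalized counts in the LDL-treated libraries and 3237, 3231 and 3787 in the PBS-treated libraries. The groups overlapped, and Bdh1 was lower after LDL in mice 1 and 3 and higher in mouse 2. Its mean was 3235 ± 609 against 3418 ± 320 (SD, n = 3). The log2 difference was -0.09 (SE 0.146, 95% interval -0.43 to 0.25), with an adjusted p of 0.780 by limma and 0.639 with the block. A difference as large as that of Oxct1 lies within this interval. Without the LDL-treated library of mouse 1 the difference turned to 0.05, and without both libraries of mouse 3 it was -0.02.

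Bdh2 had 3, 6 and 5 reads in the LDL-treated libraries and 3, 4 and 4 in the PBS-treated libraries, which corresponds to 3.66, 5.46 and 4.18 against 3.06, 4.97 and 3.26 normalized counts. The groups overlapped, and each mouse had a slightly higher value after LDL. Its mean was below the limit of 10 set for testing, and a difference was not detectable at this depth.

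**Figure D1:**
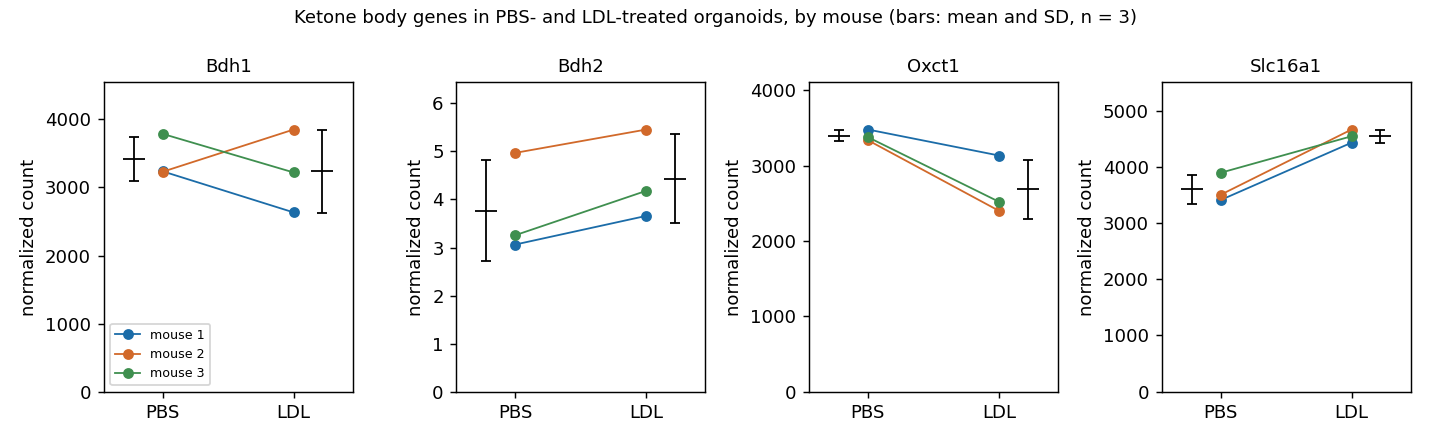
Normalized counts (y axis, each panel with its own scale from 0) of the 4 genes in the PBS- and LDL-treated libraries (x axis). Points are libraries, lines join the libraries of a mouse, and the bars beside them are the mean and SD (n = 3). The lines of Slc16a1 all go up to between 4431 and 4665, those of Oxct1 all go down, those of Bdh1 cross, and Bdh2 stays under 6.

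None of the 3 members tested was called at an adjusted p under 0.05 and more than 1.5-fold by limma, where 0.878% of all genes tested were called higher and 0.395% lower. At an unadjusted p under 0.05, 2 of the 3 passed by limma, as did 19.7% of all genes tested. DESeq2 and edgeR without the block called 0 of the 3 at the same thresholds, where they called 4.58% and 1.01% of all genes higher and 1.89% and 0.379% lower. With the mouse as a block and no limit on fold, Slc16a1 was among the 8.27% of genes that passed higher, and Oxct1 among the 7.45% that passed lower. Values of LDL-treated organoids lay wholly above those of PBS-treated organoids for 11.9% of all genes, among them Slc16a1, and wholly below for 12.3%, among them Oxct1. The exact permutation test over libraries gives 0.1 for either gene, which is the smallest p that 3 against 3 can give. The median log2 difference of the 3 members was -0.09 and that of all genes tested was -0.02.

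The opposite directions of the carrier and the transferase were also read within each library, where size factors cancel. These ratios were chosen after the values were known and were not tested. There were 1.41, 1.94 and 1.80 reads of Slc16a1 per read of Oxct1 in the LDL-treated libraries and 0.979, 1.05 and 1.15 in the PBS-treated libraries. The ratio was higher after LDL by 1.44-, 1.85- and 1.56-fold in mice 1, 2 and 3, and the groups did not overlap. Bdh1 per read of Oxct1, at 0.840, 1.60 and 1.28 against 0.930, 0.968 and 1.12, overlapped between the treatments.

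Bdh1 differed from Acat1 in the same sense. There were 1.57, 1.47 and 1.74 reads of Bdh1 per read of Acat1 after LDL and 1.12, 0.938 and 1.24 after PBS, and the groups did not overlap. Acat1, the mitochondrial thiolase that completes ketone body use, was itself lower in 3 of 3 mice. Oxct1 per read of Acat1 overlapped, with 1.88, 0.919 and 1.36 after LDL and 1.21, 0.969 and 1.11 after PBS.

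**Figure D2:**
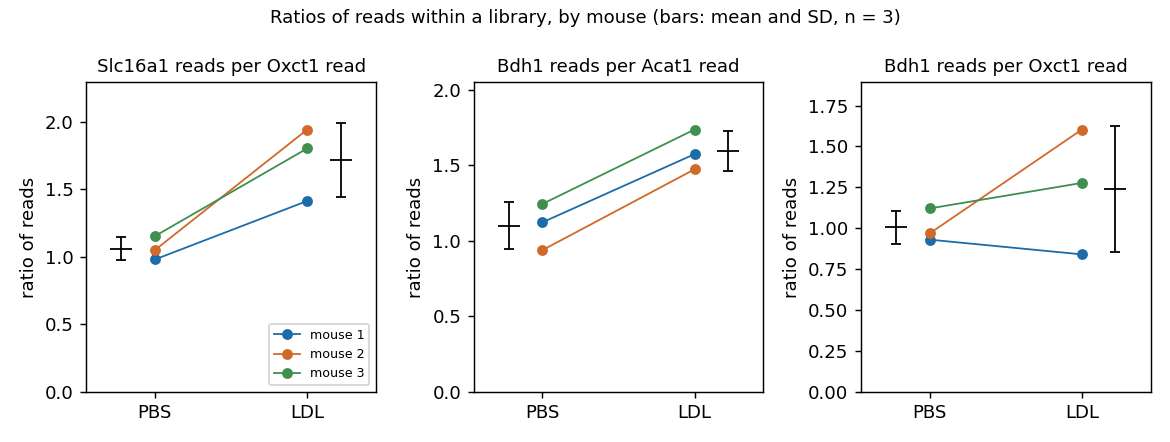
Ratios of reads between a pair of genes in the same library (y axis, from 0) for PBS- and LDL-treated organoids (x axis), with lines joining the libraries of a mouse and bars for the mean and SD (n = 3). Slc16a1 per Oxct1 and Bdh1 per Acat1 are higher after LDL in each mouse, with means of 1.72 against 1.06 and 1.60 against 1.10, while Bdh1 per Oxct1 is lower after LDL in mouse 1 and higher in the other mice.

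Levels of different genes were compared as normalized counts per kilobase of the main transcript. In PBS-treated organoids, Bdh1 stood highest among the members with 1093 ± 102, followed by Oxct1 with 963 ± 20.7, Slc16a1 with 783 ± 56.0 and Bdh2 with 3.42 ± 0.956 (SD, n = 3), and the ranges of neighbours in this order did not overlap. In LDL-treated organoids the order was Bdh1 with 1034 ± 195, Slc16a1 with 988 ± 25.4, Oxct1 with 761 ± 112 and Bdh2 with 4.03 ± 0.841. Here the range of Bdh1 overlapped those of Slc16a1 and of Oxct1, but Slc16a1 and Oxct1 did not overlap. On this scale, Oxct1 was above Slc16a1 in each PBS-treated library and below it in each LDL-treated library. With the length of all annotated exons in place of the main transcript, the order of the PBS means was the same (746, 706 and 682 for Bdh1, Oxct1 and Slc16a1), but in PBS-treated mouse 3 Oxct1 was below Slc16a1 (702 against 737), and in LDL Slc16a1 came first (860), before Bdh1 (706) and Oxct1 (558).

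Among the listed carriers of the Slc16 family, Slc16a1 was far above the others in both treatments. Slc16a6, a carrier that has been linked to ketone body export from the liver, followed with 156 ± 30.7 normalized counts per kilobase after PBS and 154 ± 17.3 after LDL. Slc16a3, which encodes the lactate exporter MCT4, had 47.1 ± 29.8 and 85.6 ± 62.3. Slc16a8 was at 17.9 ± 7.84 and 22.2 ± 3.11, and Slc16a7, which encodes MCT2, at 3.16 ± 1.23 and 3.26 ± 1.32 (SD, n = 3). Bsg, the chaperone of MCT1, was above all of them with 4962 ± 581 after PBS and 5663 ± 1072 after LDL.

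**Figure D3:**
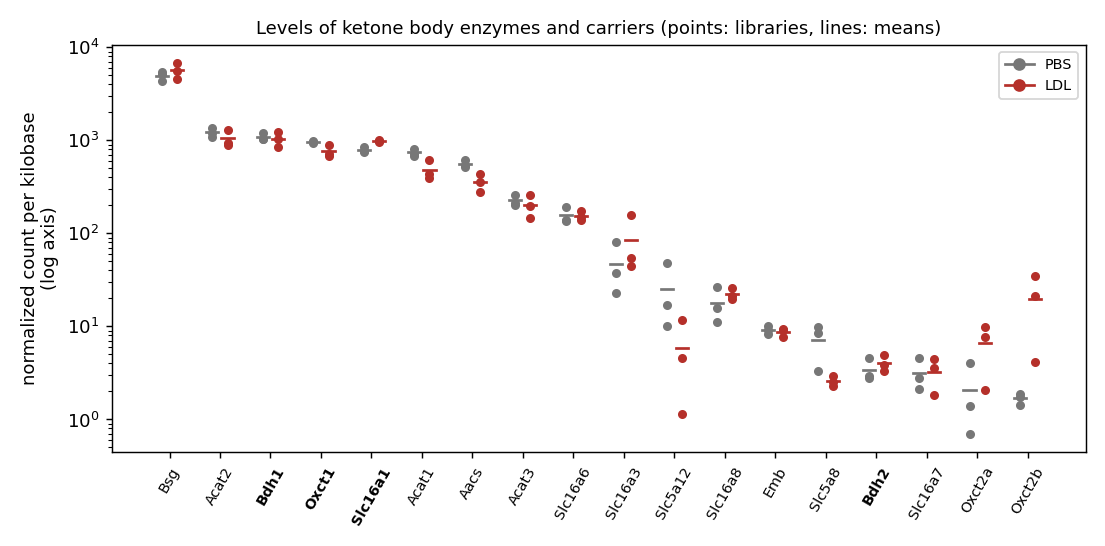
Normalized counts per kilobase of the main transcript (y axis, log scale) of the members (bold) and of the other ketone body enzymes and carriers reported here that had a mean above 1 in both treatments (x axis, ordered by the PBS mean). Points are libraries and lines are means of 3. Slc16a1 passes Oxct1 between PBS and LDL, and Bdh2 lies with the least abundant carriers, at 3.42 and 4.03.

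A further 32 genes of the pathway, in 4 lists of ketone body enzymes, transport, lactate and pyruvate genes and regulators, were described in the same way. Of these, 28 passed the limit on the mean, and none was called by limma without the block, although 9 had an unadjusted p under 0.05. Of these, 3 were higher and 6 lower after LDL, where 9.96% and 9.73% of all genes tested had such a p. DESeq2 on the recovered reads called 2 higher and 3 lower, against 4.58% and 1.89% of all genes, and edgeR none. With the mouse as a block, limma called 3 higher (10.7% of the 28, against 5.68% of all genes tested) and 5 lower (17.9%, against 3.46%). Non-overlapping values were higher in 2 (7.14%, against 11.9% of all genes) and lower in 5 (17.9%, against 12.3%). The median log2 difference of the 28 was -0.04. Values without the block are given beside those with it.

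Of the 8 other ketone body enzymes, 6 were tested, and with the block 1 was called higher and 2 lower. Acat1 had 1672, 2613 and 1853 normalized counts after LDL and 2885, 3446 and 3045 after PBS, with no overlap. Its log2 difference was -0.63 (SE 0.167), with an adjusted p of 0.104 by limma, 0.00462 with the block and 0.0188 with DESeq2. Acat1 overlaps Npat on the opposite strand, whose level was between 1346 and 1481 in the 6 libraries, and the strand setting of the counting was not given in the sources used here.

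Aacs, which activates acetoacetate in the cytosol for lipid synthesis, had 1295, 1987 and 1635 normalized counts after LDL and 2475, 2869 and 2394 after PBS. The groups did not overlap, and the log2 difference was -0.67 (SE 0.159), with an adjusted p of 0.0871 by limma, 0.00441 with the block and 0.00605 with DESeq2. For Acat2, a cytosolic thiolase, and its near copy Acat3 the treatments overlapped, with log2 differences of -0.23 and -0.19. These thiolases share 755 read-length stretches, which are 29.4% of those in Acat2 and 37.3% of those in Acat3, so their counts are uncertain.

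Oxct2a and Oxct2b are copies of the transferase gene that are known from the testis. Their transcripts are 98.0% identical over 1735 aligned bases and each is 75.1% identical to Oxct1 over 642 aligned bases. They share 428 read-length stretches with each other (25.8% and 26.2% of their own) and none with Oxct1, so that Oxct1 counts do not hold their reads at this length. The stretch below shows a place where the coding parts of the copies differ most. It is a window of the length of a read inside the coding part of the single exon of each, chosen for having the most differing bases. It lies at chr4:123216708-123216808 on the minus strand for Oxct2a and chr4:123010653-123010753 on the plus strand for Oxct2b (GRCm39). It is written along the transcript with the 4 bases that differ in capitals.
Oxct2a: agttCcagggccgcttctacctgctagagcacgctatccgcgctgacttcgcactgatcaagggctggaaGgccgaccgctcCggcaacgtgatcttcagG
Oxct2b: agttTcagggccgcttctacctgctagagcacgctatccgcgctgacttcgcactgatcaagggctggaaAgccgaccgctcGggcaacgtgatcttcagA

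Oxct2b had 59.8, 7.28 and 36.8 normalized counts after LDL and 3.06, 2.49 and 3.26 after PBS. The groups did not overlap, LDL-treated mice 1 and 3 were well above mouse 2, and the levels were low beside those of Oxct1. The log2 difference was 2.77 (SE 0.695), with an adjusted p of 0.0979 by limma, 0.0122 with the block and 0.00114 with DESeq2. Oxct2b lies on the same strand inside an intron of Bmp8b, with 0 of its bases in Bmp8b exons. Bmp8b itself had 461, 80.9 and 299 normalized counts after LDL and 81.7, 34.8 and 53.7 after PBS, with a log2 difference of 2.04 and an adjusted p of 0.131 by limma and 0.00266 with the block. The same libraries had reads on the most genes, 35781 in LDL-treated mouse 1 and 32751 in LDL-treated mouse 3 against 29285 to 30018 in the other 4 libraries. The part of intronic reads of Bmp8b in the Oxct2b counts was not tested. Oxct2a had 13.4, 3.64 and 17.6 against 7.15, 1.24 and 2.44, below the limit for testing.

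Of the 10 genes of transport and sensing, 8 were tested, and with the block 1 was called higher and 2 lower. Slc16a3 had 210, 739 and 258 normalized counts after LDL and 108, 378 and 178 after PBS. It was higher after LDL in each mouse although the groups overlapped, with a log2 difference of 0.81 (SE 0.559) and an adjusted p of 0.476 by limma, 0.00618 with the block and 0.618 with DESeq2 without it. Its differences between mice exceeded those between treatments, with mouse 2 highest under both.

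Both sodium-coupled monocarboxylate carriers were lower after LDL in 3 of 3 mice. Slc5a8 had 15.9, 13.6 and 12.5 normalized counts after LDL and 53.1, 46.0 and 17.9 after PBS, without overlap and with a log2 difference of -1.28 (SE 0.420) and an adjusted p of 0.154 by limma and 0.0362 with the block. With DESeq2 its adjusted p was 0.0562 without the block and 0.0747 with it. Slc5a12 had 23.2, 60.02 and 5.85 against 86.8, 246 and 51.3, which overlapped between mice, with a log2 difference of -2.27 (SE 0.828) and an adjusted p of 0.186 by limma, 0.00173 with the block and 0.235 with DESeq2 without it. Bsg had 8347, 12224 and 10162 against 7789, 9789 and 9348. It overlapped, with a log2 difference of 0.18 (adjusted p of 0.587 by limma and 0.205 with the block), and Slc16a1 per read of Bsg, at 0.531, 0.382 and 0.447 against 0.438, 0.358 and 0.417, overlapped as well. Within mice, Bsg was higher after LDL in 3 of 3, and the ratio was higher by 1.21-, 1.07- and 1.07-fold in mice 1, 2 and 3. Hcar2, whose product is a receptor of β-hydroxybutyrate, had 5 reads in all LDL-treated and 4 in all PBS-treated libraries together, and the lactate receptor gene Hcar1 had 3 and 1.

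MCT1 also moves lactate and pyruvate. Of the 6 lactate and pyruvate genes, with the block 0 were called higher and 1 lower by limma. Mpc1, a subunit of the mitochondrial pyruvate carrier, had 503, 712 and 530 normalized counts after LDL and 847, 1107 and 837 after PBS, with no overlap. Its log2 difference was -0.68 (SE 0.169), with an adjusted p of 0.0946 by limma, 0.00217 with the block and 0.0102 with DESeq2, and 15.7% of its read-length stretches are shared with the pseudogene Mpc1-ps. Pkm, which encodes the muscle-type pyruvate kinase, was higher without overlap (log2 difference of 0.53, SE 0.149) and had an adjusted p of 0.118 by limma, 0.0110 with the block and 0.00753 with DESeq2, below 1.5-fold. Ldha, the main lactate dehydrogenase gene here, overlapped, with a log2 difference of 0.04.

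Of the 8 regulators, with the block 1 was called higher and 0 lower by limma. Ppard, which encodes a fatty acid receptor of the intestinal epithelium, had 1220, 568 and 1048 normalized counts after LDL and 615, 440 and 551 after PBS. It was higher in 3 of 3 mice with a log2 difference of 0.76 (SE 0.274), and its adjusted p was 0.183 by limma, 0.00777 with the block and 0.0345 with DESeq2. The receptor gene Ppara had a log2 difference of 0.05 and Pparg one of -0.01, with adjusted p of 0.931 and 0.961 by limma. Rxra, the partner of these receptors, was lower without overlap, with a log2 difference of -0.38, below 1.5-fold. Its adjusted p was 0.187 by limma, 0.0410 with the block and 0.174 with DESeq2 without it.

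**Figure D4:**
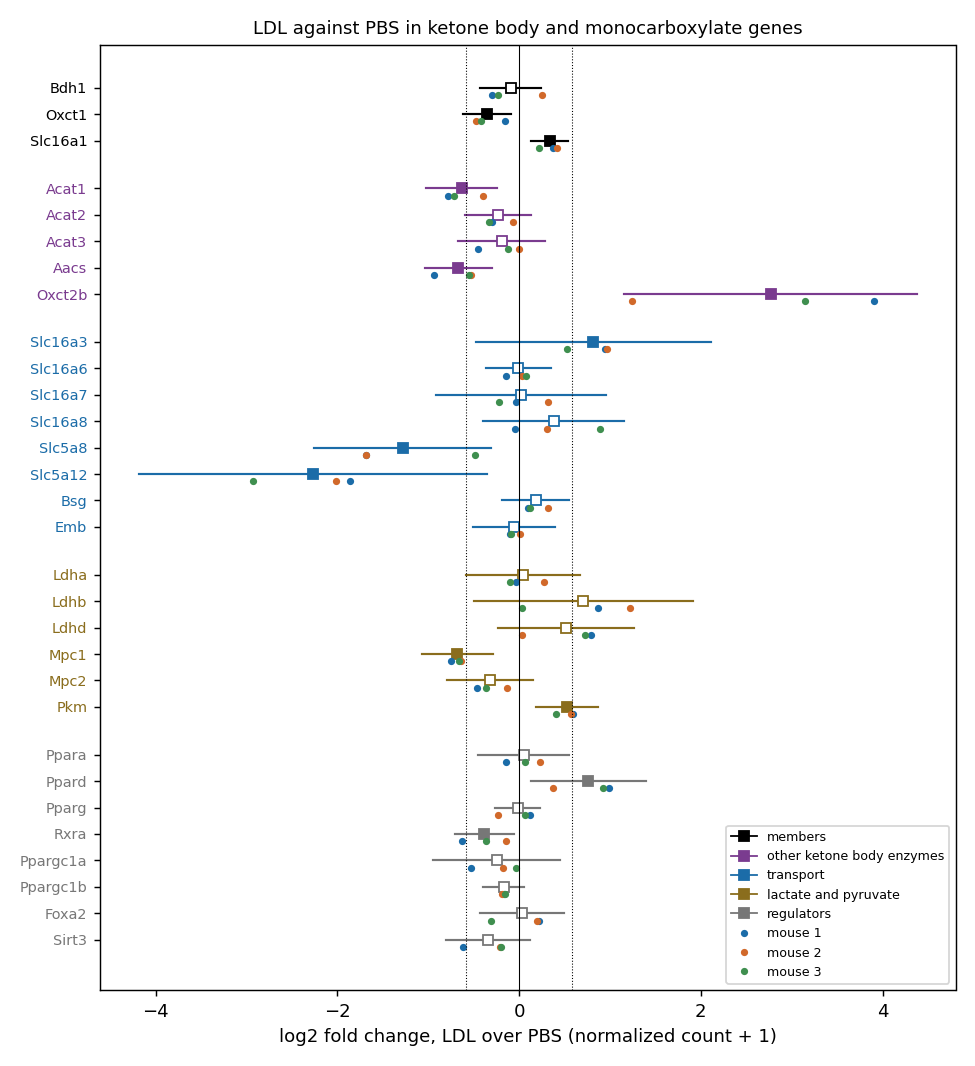
Log2 fold change of LDL over PBS (x axis, on the normalized count plus 1) for the 3 tested members and the tested pathway genes that are reported here (y axis). Squares and lines are the limma estimate with its 95% interval without the block, filled where the adjusted p was under 0.05 with the mouse as a block, small points are the 3 mice, and dotted lines mark 1.5-fold. Slc16a1 at 0.34 and Oxct1 at -0.35 lie inside the dotted lines, and Acat1, Aacs and Mpc1 lie outside on the lower side.

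The genes whose log2 values were most like each member over the 6 libraries were named by Pearson's r among genes with a mean of at least 100. The libraries come from 3 mice and share their treatment, so r is a description. Bdh1 was most like Ncaph2 (r = 0.997), Tufm (0.995) and Mrpl38 (0.994), and 503 of 11938 genes had r above 0.9 with it. Slc16a1 was most like the proteasome subunit gene Psmd2 (0.996), the tubulin gene Tuba4a (0.993) and the long noncoding RNA Gm17066 (0.986), with 261 genes above 0.9. Oxct1 was most like Gm37566 (0.986), Gca (0.982) and Zfp2 (0.981), with 66 genes above 0.9. For Bdh2, Gm16559 (0.998), Cyp2c66 (0.994) and Mix23 (0.991) came first, on 3 to 6 reads of Bdh2 per library.

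Some members overlap annotated noncoding genes. Oxct1as, on the opposite strand, overlaps Oxct1 by 1250 bases and had 19.5, 4.55 and 7.53 normalized counts after LDL and 29.6, 19.9 and 21.2 after PBS, few beside the Oxct1 counts. Gm43581 and Gm43585 lie inside Slc16a1 on the same strand, with 156 to 233 and 55.5 to 111 normalized counts after LDL and 94.4 to 142 and 52.1 to 75.8 after PBS. Gm15743 overlaps Bdh1 on the opposite strand with 24.4 to 43.9 in the 6 libraries.

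Depth ranged from 22061545 to 31073360 reads on genes. The 9 epithelial markers were all present, with a summed level of 103373 to 135337 normalized counts after LDL and 92034 to 96581 after PBS. Of the 7 stromal and 6 immune markers, 5 and 4 had a mean under 10, and their sums were 83.7 to 130 and 105 to 131 after LDL against 139 to 170 and 100.7 to 178 after PBS. The 7 goblet cell markers summed to 30040 to 36488 after LDL and 52003 to 57132 after PBS, with 1 called higher and 3 lower by limma. Sums of the 6 stem cell markers were 14359 to 20519 and 17833 to 33310, those of the 6 Paneth cell markers 13679 to 16818 and 17744 to 28695, and those of the 6 proliferation markers 57973 to 64992 and 63320 to 66395, with 0 called in each list by limma without the block and 1, 1 and 0 higher and 2, 3 and 0 lower with it. A sum is weighted toward the most abundant markers. Taken marker by marker, 4 stem cell markers had a higher mean log2 value after LDL and 2 a lower one. These counts were 2 and 4 for Paneth cell markers and 1 and 5 for proliferation markers. The 10 enterocyte markers summed to 49836 to 105057 after LDL and 44704 to 90163 after PBS, and the sum was higher after LDL in each mouse. Of these markers, 5 had a higher and 5 a lower mean log2 value after LDL. Limma called 1 higher and 0 lower without the block and 4 higher and 1 lower with it. The part of cell composition in the differences of Slc16a1 and Oxct1 was not tested.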

How the data were processed

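RNA-Seq was analyzed in 6 libraries, grouped by treatment and mouse from their labels. The authors removed ribosomal RNA, made stranded libraries, sequenced single ends, and used bcl2fastq 2.20, STAR on GRCm39, featureCounts and DESeq2. The strand setting of the counting, the annotation release and any pairing term were not given in the sources used here. The deposited signal values are normalized counts per gene, and every value was a whole multiple of the value of 1 read in its library (100% of values, tolerance 0.01 reads), so whole reads were recovered. The table held 55416 genes, of which 12377 had no read, and 54749 identifiers were found in GENCODE M39 and 667 were not.

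Log2 of the normalized count plus 1 was tested with limma 3.58.1 in R 4.3.3 (eBayes with a trend, two-sided, Benjamini-Hochberg over 18459 genes with a mean of at least 10). Genes were called at an adjusted p under 0.05 and more than 1.5-fold. Alternatives were pseudocounts, filters, scalings, left-out libraries, the mouse as a block, and DESeq2 1.42.0 and edgeR 4.0.16 on the recovered reads. The labels give both libraries of a replicate number the same animal identifier, and deviations from the treatment means correlated across genes within mice (r = 0.484, 0.421 and 0.462) and negatively between mice. Deviations from a mean sum to 0 over the mice, so the negative sign follows from the positive one and adds nothing to it. On simulated LDL and PBS libraries with 200 genes changed by 1.5 on the log2 scale, limma without and with the block recovered 200 and 200 where mice did not differ, among 18125 genes, and 0 and 200 where they differed by an assumed SD of 0.5, among 18316 genes. Python 3.11.15 with matplotlib 3.10.9, numpy 2.4.6 and pandas 2.3.3 was used for tables and plots.

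The members and the gene lists were chosen with earlier results of these data known. Named genes were the members, pathway genes that were called or act with a member, and the 3 genes most like each member. Some genes are left out of this text.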

Additional observations from a re-analysis of the deposited data

How the results depend on the processing

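The direction of Slc16a1 and Oxct1 was kept in all 19 alternatives for each, with log2 differences from 0.30 to 0.40 and from -0.47 to -0.27, and that of Bdh2 in 11 of 11. The limits on the mean and on fold and the block in limma cannot change the log2 difference of a gene. The direction in those alternatives was thus fixed in advance for each member. For Bdh1 the direction was kept in 18 of 19, and leaving out a library in turn gave -0.23 to 0.047, the latter without LDL-treated mouse 1. Adjusted p of Slc16a1 ranged from 0.00965 to 0.715 and that of Oxct1 from 0.0332 to 0.753. Oxct1 passed an adjusted p under 0.05 only in the fits that paired libraries by mouse, and Slc16a1 also without pairing by DESeq2, and neither reached 1.5-fold. With the replicate block, Oxct1 passed an adjusted p under 0.05 by limma (-0.35), DESeq2 (-0.33, adjusted p 0.0356) and edgeR (-0.33, adjusted p 0.0393), and Slc16a1 by limma (0.34), DESeq2 (0.35, adjusted p 0.00965) and edgeR (0.36, adjusted p 0.0175), as well as by DESeq2 without the block (0.35). The block changed no call of Bdh1.

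Over all genes, 162 were called higher and 73 lower. These counts were 506 and 245 without a filter, 1048 and 639 with the replicate block in limma, 846 and 348 with DESeq2, 981 and 511 with DESeq2 and the block, 1171 and 588 with edgeR and the block, and 0 and 0 without both libraries of mouse 3. Leaving out 1 library gave 18 to 1179 higher (18 without LDL-treated mouse 3, 27, 55 and 39 without PBS-treated mice 1, 2 and 3, 100 and 1179 without LDL-treated mice 1 and 2) and 2 to 1133 lower. Of the pathway genes, 0 were called without the block by limma, 3 higher and 5 lower with the block in limma and in edgeR, 3 and 4 with DESeq2 and the block, 2 and 3 with DESeq2, and 0 and 2 without a filter. Leaving out 1 library gave 0 to 3 higher and 0 to 4 lower, both upper values without LDL-treated mouse 2. Without a filter the median of all genes was 0.10 on the log2 scale. Depth limited Bdh2, at 3 to 6 reads per library.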

Other observations

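Levels of some carrier and lactate genes, named after their values had been seen, differed between mice under both treatments. Mouse 2 had the highest level of Slc16a3 (739 normalized counts after LDL and 378 after PBS, against 108 to 258 in the other 4 libraries), of Slc5a12 within each treatment (60.02 and 246) and of Ldha (16735 and 13860, against 8349 to 10678). The summed level of the 10 enterocyte markers was highest in the same mouse, with 105057 and 90163 normalized counts against 44704 to 57769 in the other 4 libraries. Other genes of the same lists had another order: Ldhd was lowest in mouse 2 (50.9 after LDL and 49.7 after PBS, against 55.1 to 116 in the other 4 libraries), and Slc16a6 was highest in mouse 1 (733 and 811, against 578 to 630). The part of enterocyte content in the carrier levels was not tested.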
